A study of Mus musculus with 2 samples.

Results

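The MyoD family comprises 4 genes, Myod1, Myog, Myf5 and Myf6, which encode the muscle-specific basic helix-loop-helix transcription factors. They were followed here in open chromatin of mouse gastrocnemius, the large calf muscle. All 4 were found by symbol among 21911 protein-coding gene symbols. For each gene the peaks within 1 kb of its annotated start were taken as promoter peaks, and peaks farther out, to 150 kb, as distal. The tissue came from male B6CASTF1/J mice, hybrids of C57BL/6 and CAST, at an age of 14 days and without any treatment or gene change given in the labels. The series holds 1 group with 2 biological replicates, so there was no condition to contrast. The labels carry the words 3x Males without saying how many animals went into a library. DNase-seq sequences the ends that DNase I leaves where DNA is accessible. A peak is a stretch with many such ends, and a footprint is a short stretch with fewer ends than its surroundings. Values below are given per library, replicate 1 first, and no test was run because no contrast exists.

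MyoD family proteins dimerize with E proteins such as the products of Tcf3, Tcf4 and Tcf12 and bind the E-box, a short motif written CANNTG. In the embryo Myf5, Myod1 and Myf6 commit cells to the muscle lineage, and Myog drives the fusion and differentiation of myoblasts. In postnatal muscle Myod1 and Myf5 are best known from satellite cells, the muscle stem cells, while Myf6 is the family member most expressed in mature fibres. Enhancers far from the start have been described at Myod1 and at the joint locus of Myf5 and Myf6, and their positions were not used here.

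The libraries held 82498 and 88198 peaks in their strict lists, in which every peak reached a false discovery rate (FDR) of 0.001. Permissive lists, with peaks up to 0.05, held 138117 and 139545 peaks. Peak signal is the authors' own value and has no stated scale. It was therefore ranked within a library, or compared as the ratio of replicate 1 to replicate 2 divided by the median of that ratio (1.54 over 66767 overlapping peak pairs). The tissue label was checked against marker promoters. Promoters of all 8 skeletal muscle markers were open in both libraries. So were those of 2 of 4 satellite cell markers, 3 of 3 fibroblast markers, 2 of 3 endothelial markers and 1 of 2 Schwann cell markers, beside 61.7% of all protein-coding genes. No peak in either library was found at the 3 macrophage, 2 heart and 2 liver markers. The libraries came from whole tissue, where fewer cells of a type and less accessibility per cell cannot be told apart.

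Myod1 had the strongest promoter of the family in both libraries. The gene lies at chr7:46376474-46379099 on the plus strand with 3 exons and 1 annotated start. Its main peak spanned the start, from 46376261 to 46376480 in replicate 1 and from 46376241 to 46376540 in replicate 2. Peak signals were 6.94 and 1.76, at percentiles 92.1 and 75.8 of all peaks of each library. Among protein-coding genes these promoter signals ranked at percentiles 72.5 and 53.9 (mean 63.2 ± 13.2, SD, n = 2), so the libraries placed the gene rather differently. Against the median over promoters open in the same library, 5.95 and 3.40, the promoter was above it in replicate 1 and below it in replicate 2. A further peak inside exon 1, at 46377101-46377320 and 46377081-46377320, had signals of 2.75 and 1.37. A short peak between these 2, with a signal of 1.01, was found in replicate 1. The lowest FDR in the window was 3.28e-39 and 1.94e-14, and 779 and 725 bases reached 0.001.

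Myog had a weaker promoter that ranked alike in the libraries. The gene lies at chr1:134289989-134292548 on the plus strand, also with 3 exons and 1 start. Its strongest promoter peaks had signals of 2.10 and 0.982, at gene percentiles 49.2 and 46.3 (mean 47.7 ± 2.06, SD, n = 2). In replicate 1 that peak lay upstream, at 134289601-134289900. In replicate 2 the same stretch was split into peaks at 134289601-134289778 (0.757) and 134289841-134290060 (0.982), the latter over the start. A second open stretch in exon 1 had signals of 1.97 and 0.872. The lowest FDR in the window was 1.47e-10 and 4.62e-07, and 759 and 666 bases reached 0.001.

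Myf5 and Myf6 had low promoter peaks in replicate 1 and no strict peak in replicate 2. They are neighbours on the minus strand of chromosome 10, at chr10:107482908-107486134 and chr10:107492853-107494737, with starts 8603 bases apart, 3 exons each and 1 start each. At Myf5 replicate 1 had a peak in exon 1 (0.858), one upstream (0.741) and one across the start (0.424). At Myf6 it had a single peak in exon 1 with a signal of 0.831. These signals stood at percentiles 29.7 (Myf5) and 28.0 (Myf6) of all peaks and at percentiles 40.4 and 40.2 of promoter signal over genes. In replicate 2 both genes tied with all promoters without a peak, at percentile 18.3.

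The permissive list and the FDR of single bases separated these neighbours. In replicate 2 the permissive list held an upstream promoter peak of Myf5 with a signal of 0.578 and a lowest FDR of 0.00117, just short of 0.001, and none for Myf6. The lowest FDR in the Myf6 window was 8.09e-05 in replicate 1 and 0.0441 in replicate 2. For Myf5 it was 4.11e-10 in replicate 1. In that library 821 bases of the Myf5 window reached 0.001, more than at Myod1 or Myog, although its strongest peak was weaker than theirs. The Myf6 window held 158 such bases, and neither gene had any in replicate 2. At the limit of 0.05, replicate 2 held 339 bases at Myf5 and 13 at Myf6.

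**Figure D1:**
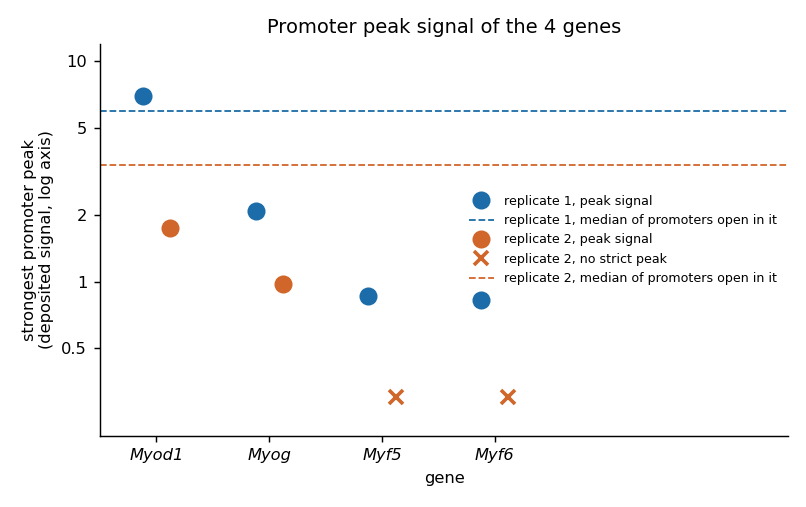
Signal of the strongest promoter peak (log axis) of each gene in replicate 1 (blue) and replicate 2 (orange); crosses at the bottom mark a gene with no strict peak, and dashed lines are the medians over promoters open in that library. Myod1 in replicate 1, at 6.94, is the single value above its library's median of 5.95.

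**Figure D2:**
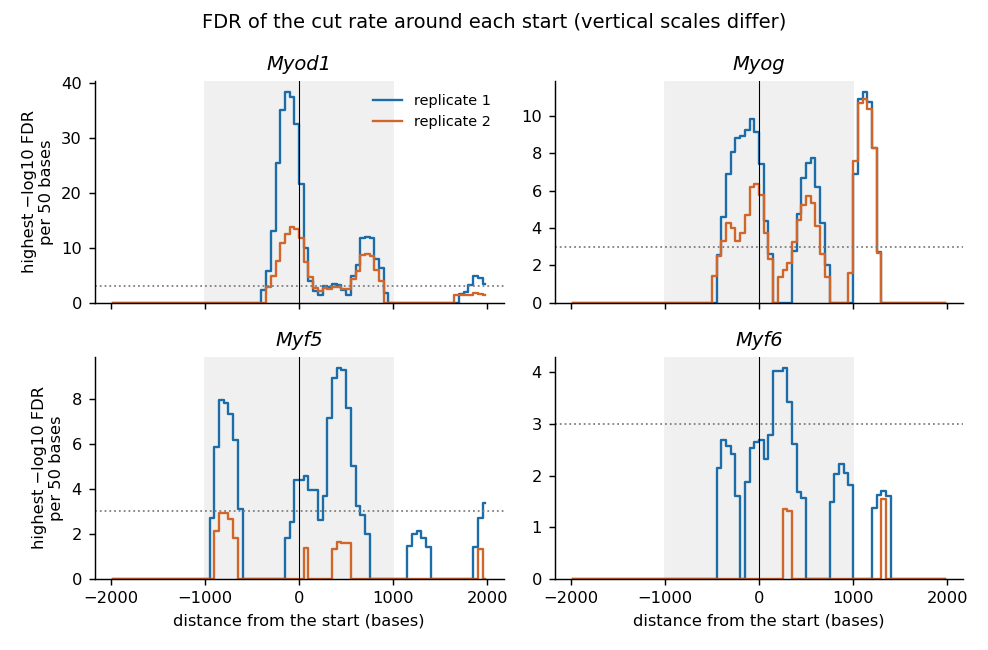
Highest −log10 FDR of the cut rate per 50 bases, by distance from the start along each gene, in both libraries; the promoter window is shaded, the dotted line marks an FDR of 0.001, and a value of 0 means that no base was listed. Myod1 and Myog cross the line in both libraries, and Myf5 and Myf6 in replicate 1.

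Counted as a family, 2 of 4 promoters were open in both libraries, against a background of 61.7% of all protein-coding genes. In replicate 1 it was 4 of 4 (background 63.4%) and in replicate 2 it was 2 of 4 (background 63.4%). With the permissive lists 3 of 4 were open in both (background 65.7%), Myf5 being added. Both Myf5 and Myf6 belong to the class with a peak in replicate 1 alone, which holds 384 genes, 1.75% of the total. With 4 genes these counts describe the family and nothing more. The promoters of the family were poorer in CpG than most. The ratio of observed to expected CpG within 500 bases of the start was 0.480 at Myod1, 0.344 at Myog, 0.406 at Myf5 and 0.379 at Myf6, against a median of 0.606 over all genes. Of the genes in the same decile of CpG ratio, 76.0% were open in both libraries for Myod1 and 43.2% for the other 3.

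Footprints in the promoter windows followed the same order. There were 12 and 13 in the Myod1 window, 11 and 11 at Myog, 10 and 2 at Myf5, and 5 and 0 at Myf6. The windows with few footprints were also those with few open bases, and binding itself was not measured.

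The upstream sequences of Myog and Myf5 are shown to compare the open promoter with the one that was near the calling limit. They are the 250 bases before the start in RefSeq's promoter table (GRCm38.p6, the same assembly as mm10), at chr1:134289754-134290003 on the plus strand and chr10:107486135-107486384 on the minus strand. The table had entries for 2 of the 4 genes, and RefSeq places the start of Myog slightly downstream of GENCODE. Capitals mark matches to the E-box and to MEF3 (TCAGGTTTC), a motif found at muscle gene promoters, searched on both strands.
Myog promoter: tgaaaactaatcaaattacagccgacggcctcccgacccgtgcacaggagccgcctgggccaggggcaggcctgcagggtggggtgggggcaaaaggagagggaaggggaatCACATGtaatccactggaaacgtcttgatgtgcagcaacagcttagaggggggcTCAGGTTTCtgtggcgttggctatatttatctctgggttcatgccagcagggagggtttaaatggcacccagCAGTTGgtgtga
Myf5 promoter: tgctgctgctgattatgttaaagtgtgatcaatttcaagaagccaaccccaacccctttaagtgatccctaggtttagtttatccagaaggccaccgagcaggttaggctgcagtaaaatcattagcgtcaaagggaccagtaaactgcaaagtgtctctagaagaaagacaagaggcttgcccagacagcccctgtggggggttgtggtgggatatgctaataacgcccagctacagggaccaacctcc

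The Myog sequence held 2 E-boxes and 1 MEF3 match, and the Myf5 sequence neither motif. Of 32851 promoter entries cut to the same 250 bases, 66.2% held at least 1 E-box and 0.387% a MEF3 match. Footprints numbered 5 and 3 in the Myog stretch, and none of its 3 matches overlapped a footprint in either library. No footprint lay in the Myf5 stretch in either library. Of the promoter peaks of Myf5, this stretch met only the faint one of replicate 1 across the start (0.424). The upstream peak near the calling limit in replicate 2 lay outside it. These letters match a pattern, and whether a protein sits there was not measured.

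Distal open regions were numerous around Myod1 and Myog and few around Myf5 and Myf6. A distal region is a stretch with a strict peak in both libraries and outside the promoter windows of all genes. Within 150 kb Myod1 had 20 and Myog 24, at percentiles 96.0 and 98.4 of protein-coding genes. At least as many were found for 4.57% and 1.79% of genes. Myf5 and Myf6 shared the same 5 regions (percentile 40.3), below the median of 7 per gene. Within 50 kb the counts were 11 and 14, reached by 1.81% and 0.497% of genes. For both Myf5 and Myf6 the count was 0, at percentile 14.0 with all other genes that had 0. The median within 50 kb was 2 per gene. Gene density differed between the loci. There were 3 other protein-coding genes with a start in the window at Myod1, 8 at Myog, and 1 each at Myf5 and Myf6. Another gene's start was nearer than that of the member for 13 of 20 regions at Myod1, 15 of 24 at Myog and 2 of 5 at Myf5 and Myf6.

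**Figure D3:**
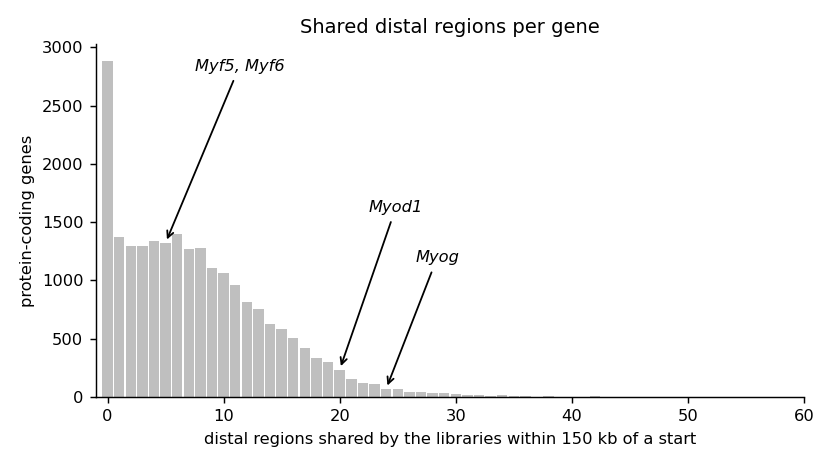
Number of protein-coding genes (bars) by the number of shared distal regions within 150 kb of a start. Arrows mark Myod1 with 20 regions, Myog with 24, and Myf5 and Myf6 with 5 each.

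The 20 regions of Myod1 were 9 intergenic, 10 intronic and 1 exonic, with 12 of them upstream. Signals ranged from 0.719 to 4.90 with a median of 2.15 in replicate 1, and from 0.339 to 2.44 with a median of 0.952 in replicate 2. By mean percentile the strongest lay 2.6 kb downstream of the start, just past the 3′ end of the gene, at chr7:46379121-46379280. It was also the nearest, with signals of 3.53 and 2.44. In replicate 2 this region had a higher signal than the promoter of Myod1 (1.76), and in replicate 1 a lower one (6.94). Next were intergenic regions 16.7 kb downstream (chr7:46393221-46393420; 2.92 and 2.30) and 60.4 kb upstream (chr7:46315781-46316040; 3.47 and 1.39). The farthest, 149.9 kb upstream in an intron of Ush1c, had signals of 1.13 and 1.20.

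Another 3 intergenic regions, upstream of Myod1 and named after their values were seen, differed more between the libraries. They lay 34.6 kb (chr7:46341501-46341860), 22.9 kb (chr7:46353281-46353560) and 5.0 kb (chr7:46371201-46371460) from the start. Signals were 4.90 and 1.00 at the farthest, 3.51 and 0.895 at the middle one, and 2.29 and 0.734 at the nearest. A strong peak 26.0 kb upstream (chr7:46350201-46350440; 4.89 and 1.48) falls in the promoter window of the noncoding gene 1700025L06Rik and was not counted as distal. Counting regions in other genes' promoter windows raised Myod1 to 24 and Myog to 32.

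Of the 24 regions at Myog, 10 were intergenic, 8 intronic and 6 exonic. Replicate 1 signals ran from 0.569 to 6.53 with a median of 1.76, and replicate 2 signals from 0.477 to 4.03 with a median of 0.904. The strongest was intergenic, 45.5 kb upstream at chr1:134244301-134244480, with 6.53 and 4.03. It was followed by a region 12.6 kb downstream in an intron of Ppfia4 (chr1:134302561-134303020; 4.57 and 2.28). The third, 138 kb upstream (chr1:134151741-134151940), was also the farthest and was stronger in replicate 2 (2.43 and 3.87). The nearest lay in exon 2 of Myog itself, 1.0 kb from the start at chr1:134291021-134291220. Its signals of 2.31 and 1.48 were above those of the Myog promoter peaks in both libraries (2.10 and 0.982).

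Replicate 1 had 20 distal regions at Myog that replicate 2 lacked, and replicate 2 had 1 that replicate 1 lacked. Many of the former were faint. Of 60 peaks of replicate 1 at the locus, 13 fell below the library's 10th percentile of signal (0.546), with signals from 0.201 to 0.507. Most of them lay in a row over Ppfia4, downstream of Myog. In replicate 2 it was 1 of 39 peaks. The Ppfia4 intron region within that row had a lowest FDR of 1.67e-248 in replicate 1 and 5.19e-26 in replicate 2. In replicate 1 the Myod1 promoter had a higher signal (6.94) but a lowest FDR of only 3.28e-39, so FDR and signal ranked them differently. Some shared regions counted for Myog lie in the same row, and their part in its rank was not tested.

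The 5 regions shared by Myf5 and Myf6 all lay far from both genes. The strongest was in exon 35 of Ptprq, 76.9 kb upstream of Myf5 and 68.3 kb upstream of Myf6 (chr10:107563001-107563200; 2.91 and 0.982). It was also the nearest to Myf6 and to Myf5. The next were introns of Lin7a at 124.3 kb downstream of Myf5 (chr10:107361701-107361880; 0.864 and 1.22) and at 96.3 kb (chr10:107389701-107389860; 0.780 and 1.09), where replicate 2 was higher. The former was the farthest region of the set. Closer in, replicate 1 had peaks of its own 13.6 kb upstream of Myf5 (1.87, at chr10:107499761-107499940), which is 5.0 kb upstream of Myf6, and 20.4 kb upstream (1.25). Between the genes it had a faint peak of 0.652. Replicate 2 alone had a peak 43.1 kb downstream of Myf5 (0.830). With the permissive lists the shared regions of Myf5 and of Myf6 rose to 11.

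**Figure D4:**
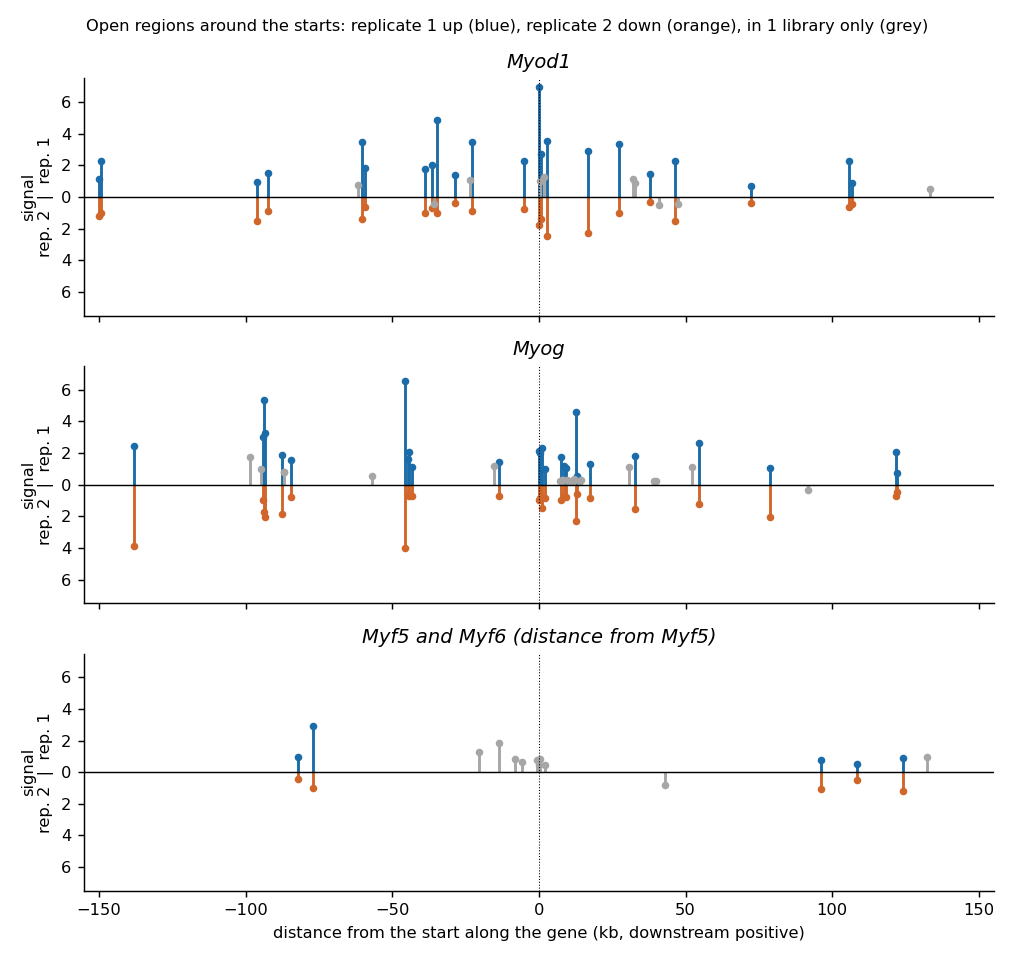
Peak signal (deposited scale) by distance from the start, downstream to the right, for the loci of Myod1, Myog and, measured from Myf5, Myf5 and Myf6; replicate 1 points up in blue, replicate 2 down in orange, regions in 1 library only are grey, and promoters of other genes are left out. Within 50 kb of the start lie 11 paired distal regions at Myod1 and 14 at Myog, and none at Myf5 and Myf6. The median over protein-coding genes is 2.

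Replicate 1 exceeded replicate 2 at the peak over the Myod1 start by more than at nearly all other peaks. The ratio at this strongest promoter peak was 2.56 times the median ratio, at percentile 99.7 of all pairs. It stood at percentile 99.6 among the 6676 pairs of like strength and at 99.8 among the 13512 promoters open in both libraries, whose median was 1.19. The ratio at the Myog promoter was 1.38, at percentiles 80.0, 78.2 and 70.5 on the same 3 scales. For Myf5 and Myf6 no ratio exists, since replicate 2 had no strict peak.

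Most distal regions of Myod1 leaned the same way. At Myod1 the median relative ratio was 1.53, with 15 of 20 above 1 and 10 above 1.5. Over all 41807 shared distal regions the median was 0.919, with 42.7% above 1 and 12.2% above 1.5. The highest at Myod1 were 3.17 (34.6 kb upstream), 2.75 (37.9 kb downstream), 2.54 (22.9 kb upstream) and 2.39 (105.7 kb downstream). High ratios thus lay on both sides of the gene. The value of 2.75 rests on a replicate 2 signal of 0.339, below that library's 10th percentile (0.376). The region 5.0 kb upstream had 2.02. The regions at 2.6 kb and 16.7 kb downstream had 0.938 and 0.821, so the locus did not move as 1 unit. At Myog the median was 1.02 with 13 of 24 above 1, and at Myf5 and Myf6 it was 0.692 with 2 of 5 above 1. The latter share (40%) was near that over all shared distal regions, and the strongest of the 5 had 1.92. Regions in 1 library only have no ratio, and at Myf5 and Myf6 they were 5 in replicate 1 and 1 in replicate 2. Ratios at marker promoters differed between the marker lists. The 8 skeletal muscle markers had a median of 2.21, all of them above 1, as were 70.7% of the 13512 promoters open in both, and summed signals of 65.2 and 22.6. The fibroblast markers had a median of 1.04 (summed signals 12.4 and 8.21) and the 2 endothelial ratios a median of 0.727 (2.74 and 3.08). Summed signals of the 4 satellite cell markers were 7.86 and 2.49, most of which came from Cdh15 (5.63 and 1.69). Of their 2 ratios 1 was above 1, that of Cdh15 at 2.16, while Vcam1 (0.764 and 0.798) had 0.619. Pax7 was open in replicate 1 alone (1.47), and Calcr in neither library. Their part in the ratios at the family's loci was not tested, nor was that of sequencing, which for replicate 1 used 2 instrument models per the labels.

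**Figure D5:**
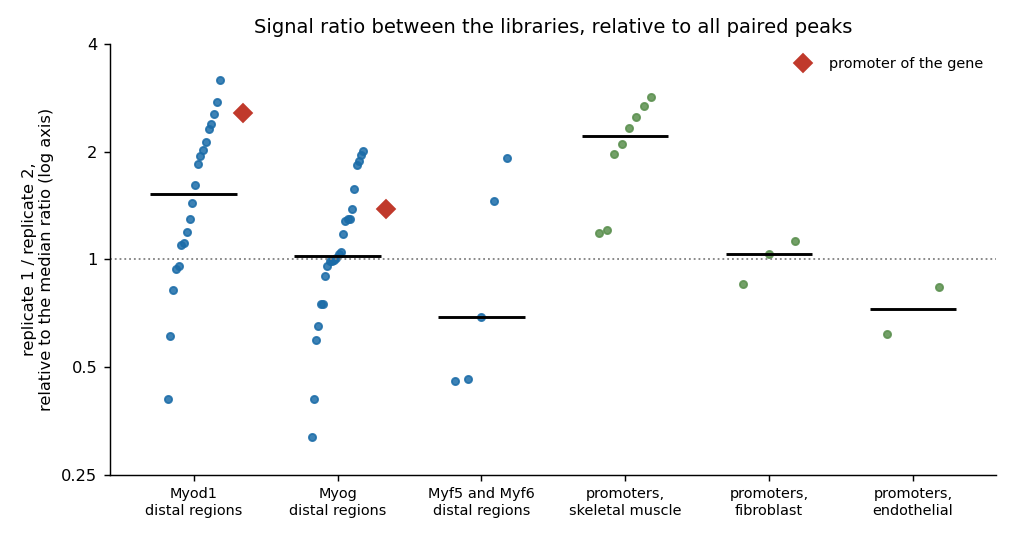
Signal of replicate 1 over replicate 2, divided by the median ratio of all pairs (log axis), for each shared distal region of the loci (blue), the promoters of Myod1 and Myog (red) and marker promoters (green); bars are medians. The strongest Myod1 promoter peak (2.56) stands within the range of the skeletal muscle markers, whose median is 2.21, and the endothelial median is 0.727.

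Footprints covered about the same share of the family's peaks as of all peaks. The promoter and distal peaks of the 4 genes numbered 59 and 55 and held 181 and 170 footprints, over 20.8% and 21.1% of their bases. For all peaks these shares were 19.8% and 21.9%. Of the shared distal regions, 16 of 20 at Myod1, 23 of 24 at Myog and 5 of 5 at Myf5 and Myf6 had a footprint that overlapped between the libraries. The same share over all shared distal regions was not computed, so these counts cannot be read as a trait of the loci. In the 4 regions below, read from the plus strand of the mm10 genome, capitals mark the bases that were in a footprint of both libraries. They are the strongest distal region of each locus and the second nearest one upstream of Myod1, shown because it is the stronger of the 2 upstream regions nearest to the gene.
Myod1, 2.6 kb downstream, chr7:46379121-46379280: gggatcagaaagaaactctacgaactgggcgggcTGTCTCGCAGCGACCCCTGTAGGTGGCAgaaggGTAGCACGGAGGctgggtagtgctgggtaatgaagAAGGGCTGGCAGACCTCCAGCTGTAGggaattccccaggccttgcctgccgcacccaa
Myod1, 22.9 kb upstream, chr7:46353281-46353560: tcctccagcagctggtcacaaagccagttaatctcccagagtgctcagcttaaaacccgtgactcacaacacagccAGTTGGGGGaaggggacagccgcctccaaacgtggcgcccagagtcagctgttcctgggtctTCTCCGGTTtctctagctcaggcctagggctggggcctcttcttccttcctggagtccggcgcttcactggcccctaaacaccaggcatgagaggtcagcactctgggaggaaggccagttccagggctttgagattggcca
Myog, 45.5 kb upstream, chr1:134244301-134244480: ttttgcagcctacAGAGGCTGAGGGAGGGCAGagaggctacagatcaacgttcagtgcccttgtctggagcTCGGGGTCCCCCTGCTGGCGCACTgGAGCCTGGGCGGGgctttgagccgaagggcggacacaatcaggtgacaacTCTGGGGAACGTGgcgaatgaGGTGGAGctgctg
Myf5 and Myf6, 76.9 kb upstream of Myf5, chr10:107563001-107563200: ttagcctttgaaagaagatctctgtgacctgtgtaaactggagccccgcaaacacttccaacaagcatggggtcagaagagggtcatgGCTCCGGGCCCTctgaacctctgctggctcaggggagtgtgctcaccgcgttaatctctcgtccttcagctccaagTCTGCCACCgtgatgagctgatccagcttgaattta

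In the region past the 3′ end of Myod1, 66 of 160 bases were in a footprint of both libraries, and its 1 E-box, CAGCTG, lay within such a stretch. The region 22.9 kb upstream had 3 E-boxes, CAGCTG at its left end and middle and CAGTTG between them, and 18 bases in a footprint of both, which touch the CAGTTG alone. The Myog region had 76 such bases of 180, none of them in its E-box. The Myf5 and Myf6 region had 21 of 200 and no E-box.

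E-boxes overlapped footprints somewhat more often at the family's peaks than over all peaks in replicate 1. There 40 of 96 matches did (41.7%, Wilson 95% interval 32.3 to 51.7%), against 30.1% over all peaks. In replicate 2 it was 30 of 87 (34.5%, 25.3 to 44.9%), whose interval includes the 31.1% over all peaks. The pattern CANNTG reads alike on both strands, so each match was counted once. Matches share peaks and libraries, and the intervals cover counting error only. At Myod1 the shares were 43.9% (18 of 41) and 47.2% (17 of 36), and at Myog 36.2% (17 of 47) and 21.7% (10 of 46). At Myf5 and Myf6 they were 5 of 8 and 3 of 5. The form CAGCTG alone did not show more overlap. It was in a footprint at 9 of 27 matches in replicate 1 (33.3%, against 31.3% over all peaks) and 6 of 26 in replicate 2 (23.1%, against 32.7%).

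Across the 3 loci, 25 of 103 E-box matches were in a footprint of both libraries, of which 12 were at Myod1, 10 at Myog and 3 at Myf5 and Myf6. The same share over all regions was not computed, so this count cannot be read as a trait of the loci. MyoD family dimers are known to prefer the form CAGCTG. A second form they prefer is CACCTG, searched on both strands. These forms made up 10 of the 25, and 47 of all 103 matches, so their share was no higher within footprints (40% and 45.6%). Of the 10, 9 lay in distal regions. Those 9 are shown as examples, with 12 bases on either side on the plus strand of mm10. Capitals mark the E-box, and distances are from the start, for the last one from that of Myf5.
Myod1, 28.6 kb upstream, chr7:46347850-46347879: gcaggaaagtgaCAGGTGggcagaactgtc
Myod1, 2.8 kb downstream, chr7:46379228-46379257: ctggcagacctcCAGCTGtagggaattccc
Myod1, 27.5 kb downstream, chr7:46403934-46403963: gagagtccagggCAGGTGgctgccagcctc
Myod1, 72.7 kb downstream, chr7:46449149-46449178: atgatacctgctCAGCTGgcacccctcact
Myog, 93.7 kb upstream, chr1:134196235-134196264: accaactgctgcCACCTGtttgctgcttag
Myog, 44.8 kb upstream, chr1:134245195-134245224: caaaggctggcaCAGCTGctggggtggccc
Myog, 44.5 kb upstream, chr1:134245486-134245515: gggcactccgccCACCTGtagccctcatga
Myog, 17.6 kb downstream, chr1:134307601-134307630: agctggggctggCAGCTGcccaggcaaaga
Myf5, 124.3 kb downstream, chr10:107361811-107361840: tggtggcttggcCACCTGccatatggaccc

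The site 93.7 kb upstream of Myog lies in an intron of Mybph, and the one 17.6 kb downstream in an intron of Ppfia4. The site farthest downstream of Myod1 lies in an intron of Sergef, the one at 27.5 kb in an intron of Kcnc1, and the Myf5 site in an intron of Lin7a. To compare regions of equal length, motifs were also counted in the central 200 bases of each region. CAGCTG was in 50% of the 20 Myod1 regions, 25% of the 24 Myog regions and none of the 5 at Myf5 and Myf6, against 28.0% of all shared distal regions. CACCTG on either strand was in 15%, 33.3% and 20%, against 14.7%. Any E-box was in 75%, 87.5% and 60%, against 75.7%. The strict consensus motifs of MEF2 and of serum response factor (CArG), both searched on 2 strands, had no match in the promoter or distal regions of the family. Stretches that depart from them by a base were not counted, among them the known MEF2 site of the Myog promoter, so the family's regions may hold such sites. Over all distal regions at full length 0.990% and 1.05% held a strict match.

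Genes known to act upstream of the family were mostly open. Of 21, 16 had a promoter peak in both libraries, 2 in replicate 1 alone and 3 in neither, beside the background of 61.7%. Mef2a and Mef2d, which encode partners of MyoD proteins at muscle genes, had signals of 11.3 and 6.50 and of 12.5 and 5.71. Tead1, a mediator of Hippo signalling, had 8.90 and 5.91. Pax3, which induces the family in the embryo, and Tbx1, which acts on head muscle, had no peak in either library. The median relative ratio of the list was 1.51, with 13 of 16 above 1, beside 1.19 and 70.7% over all promoters open in both.

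Dimer partners and coactivators of the MyoD proteins were open in both libraries at all 13 promoters, beside 61.7% of all protein-coding genes. Their median relative ratio was 1.20, beside 1.19 over all promoters open in both. The highest were the methyltransferase genes Prmt5 (20.7 and 9.80) and Carm1 (20.9 and 8.20) and the chromatin remodeller gene Smarca4 (16.8 and 9.68). Of the E protein genes, Tcf3 had 8.70 and 4.93 and Tcf4 9.61 and 4.51, above every member of the family in the same library. Tcf12 had 4.76 and 2.91, which in replicate 1 was below Myod1 (6.94). Of 19 inhibitors 18 were open in both, beside the same background of 61.7%, and Hdac9 in replicate 1 alone. The median relative ratio was 1.45 and all 18 were above 1, beside 70.7% of all promoters open in both. Hdac4 (23.7 and 9.93) and Hdac5 (14.5 and 6.56), deacetylases that repress MEF2, and Bhlhe40 (12.7 and 6.10), a basic helix-loop-helix repressor, led the list.

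Known target genes had the highest median ratio of the 4 lists, 1.78, with 14 of 16 above 1 (70.7% over all promoters open in both). Of 20, 16 were open in both libraries (61.7% of all genes), 2 in replicate 1 alone, 1 in replicate 2 alone and 1 in neither. Chrnb1, a subunit of the acetylcholine receptor, had 12.9 and 4.39, the creatine kinase gene Ckm 12.1 and 3.36, and the desmin gene Des 9.49 and 2.16. Myh3, the embryonic myosin heavy chain, had no promoter peak in either library. Of the targets Ckm, Des and Acta1 are also in the skeletal muscle marker list, and Cdh15 is in that of satellite cells, so the lists do not give separate readings.

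Genes with the most similar values were found by the distance over 3 percentiles, namely promoter signal in each library and the number of distal regions. Nearest to Myod1 were Hyal1 (6.70 and 1.94, 20 regions), Zfp516 (6.99 and 1.96, 21 regions) and Tpm2, which encodes a tropomyosin (6.95 and 1.95, 19 regions). Nearest to Myog were Ggt6, Padi3 and Chst3, with 22 to 26 regions. Dyrk4 was near both Myf5 and Myf6, joined by Pitx1 for Myf5 and Paqr9 for Myf6, each with a faint peak in replicate 1 alone and 5 regions.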

How the data were processed

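DNase-seq files of 2 libraries on mouse build mm10 were analysed as deposited by the authors. Peak signal, in narrowPeak format per the text deposited with the files, is the authors' value for each library alone. The labels and files used here do not state how it was scaled. The FDR per base, listed under 0.05, and the constant 0.01 of the footprint lists are the authors' deposited values of the p-value kind. Aligner, peak and footprint callers: not given in the sources used here. Read totals are not in these files, so depth is unknown.

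Each library has a strict and a permissive peak list, named here by their FDR. The strict list was used throughout. Genes and starts came from GENCODE M21 (basic set), whose assembly is that of the files. A promoter was 1 kb on either side of a start, and its signal that of its strongest peak. Distal regions were peaks of the libraries merged where they overlapped by at least 1 base. Percentiles run over protein-coding genes, or over peaks of the library. A footprint counted for a motif match if they shared a base. The groups are the labels' biological replicates, and both name 1 donor entry.

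The members and gene lists were chosen with earlier results of these data known. Named genes were the 4 members, up to 3 list genes with the highest mean promoter percentile and up to 2 without a promoter peak, and 3 similar genes per member, of which 1 is not reported here. Named distal regions were the 3 strongest, the nearest and the farthest. Hdac9, Tcf3, Tcf4, Tcf12, the marker genes named and further regions were named after their values were seen. Python 3.11.15 with numpy 2.4.6, pandas 2.3.3 and matplotlib 3.10.9 were used with bedtools 2.31.1. Counting was tested on simulated peaks. Alternatives were the permissive lists, other windows, a reciprocal overlap of 50%, stronger peaks, neighbouring promoters counted, footprints wholly inside a peak, and each library alone.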

Additional observations from a re-analysis of the deposited data

How the results depend on the processing

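The number of members open in both libraries stayed at 2 with promoter windows of 250 and 2500 bases. It was also 2 with peaks at or above the median signal. In a single library, which is another measure, 2 were open with replicate 2 alone and 4 with replicate 1 alone. Shared distal regions at Myod1 fell from 20 to 11 within 50 kb and to 10 with peaks at or above the median signal. Regions of a single library numbered 23 with replicate 2 alone and 26 with replicate 1 alone. At Myog shared regions fell from 24 to 14 and 12 under the same settings. Those of a single library numbered 27 with replicate 2 alone and 45 with replicate 1 alone. For Myf5 and for Myf6, the 5 shared regions became 11 with the permissive lists, 0 within 50 kb and 1 with peaks at or above the median signal. Their regions of a single library numbered 6 with replicate 2 alone and 10 with replicate 1 alone. Within 100 kb the shared regions were 3 for Myf5 and 2 for Myf6. The smaller counts follow from the narrower window or fewer peaks. Under all of these settings Myod1 and Myog had more regions than Myf5 and Myf6. The mean share of E-box matches in a footprint, 38.1 ± 5.08% (SD, n = 2), was 31.7% with the permissive lists, and the cause was not tested.

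No paired analysis was possible because the series holds 1 group and no test. With 2 libraries an SD is itself imprecise. Reads of both parental alleles count together in these files, and alleles were not analysed. Whether the animals of a library were pooled is not given.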
